A study of Rattus norvegicus with 30 samples.

Results

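The perilesional cortex and the thalamus of 5 sham-operated rats were compared here. These are 10 of the 30 mRNA libraries of a study of traumatic brain injury (TBI) in adult male Sprague-Dawley rats, and they were chosen by the labels alone, as the cortical and thalamic libraries of sham rats 1 to 5. Each rat gave both areas, so that the comparison was made within the rat. All animals were anesthetized with a mixture of sodium pentobarbital, chloral hydrate and magnesium sulphate in propylene glycol and ethanol, had a round craniectomy over the left parietal lobe with the dura kept intact, and were killed under isoflurane 3 months later. The sham-operated rats received no fluid pulse, so "perilesional cortex" names the matched cortical area in an animal without a lesion. Rats 6 to 10 received the pulse of lateral fluid percussion, and their cortex and thalamus served as a repeat of the comparison in other animals. The hippocampus of rats 1 to 5, called dorsal hippocampus in the labels and, in the methods, dentate gyrus with CA3c-b, was set beside both areas.

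The cerebral cortex is a layered sheet of the telencephalon in which glutamatergic projection neurons lie among local GABAergic interneurons. The thalamus is a cluster of diencephalic nuclei whose glutamatergic relay neurons project to the cortex. Most thalamic nuclei of rodents hold few interneurons, and much of their GABAergic input comes from the reticular nucleus. The hippocampus belongs to the telencephalon, as the cortex does. All of these areas also hold astrocytes, oligodendrocytes, microglia and vessels. In bulk tissue, more cells of a type cannot be told apart from more RNA per cell.

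The counts were deposited per Ensembl gene identifier, with 26404 identifiers in each area's table. The reference tables used here paired 0 of them with a gene name, so results are given by identifier and by count, at most 2 identifiers are named in each direction, and neither their roles nor the marker genes of cortex and thalamus were analysed here. That each library came from the labelled area was therefore not checked against markers. The study's methods state that the thalamic libraries were sequenced on a different instrument and to a longer read length than those of cortex and hippocampus, and that a larger share of their reads aligned, whereas the labels give 1 instrument for every library. If the methods hold, brain area and sequencing differ together in every rat and cannot be told apart in any cortex against thalamus value given here.

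The sham cortical libraries held between 25336207 and 29022015 counts (median 28220640), and the sham thalamic libraries between 23572002 and 30343544 (median 25968452). The ranges of depth overlapped. The libraries of 1 area were far more alike than those of different areas. Across the tested identifiers, Spearman's rho of log2 CPM (counts relative to library size, here and throughout scaled between libraries by TMM) was 0.984 to 0.993 between cortical libraries and 0.976 to 0.993 between thalamic libraries. Between a cortical and a thalamic library it was 0.885 to 0.908 within the same rat and 0.879 to 0.913 between different rats, so the libraries of 1 rat were not set apart from those of different rats. These correlations are across identifiers and describe the libraries. The first principal component held 82.2% of the variance and placed all 5 cortical libraries on the opposite side from all 5 thalamic libraries. The second held 5.05%. The spread between rats was larger in the thalamus, where the biological coefficient of variation was 0.219 and the median SD of log2 CPM 0.256. The cortical values were 0.147 and 0.191.

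Most measured identifiers differed between cortex and thalamus, and large differences were more often toward the cortex. Of 16981 identifiers with enough counts to be tested, 5816 were higher in the cortex and 5468 in the thalamus at a threshold of 0.05 on p-values adjusted by Benjamini-Hochberg (edgeR, quasi-likelihood test, rat as a block), which is 66.5% of those tested. Without adjustment, 11768 passed where 849 would be expected by chance. Among the called identifiers the absolute log2 fold change had a median of 0.89, so the typical call was under 2-fold. Over 2-fold calls numbered 4896 (28.8%), of which 3189 were higher in the cortex (18.8% of those tested) and 1707 in the thalamus (10.1%). The cortex therefore held 65.1% of the calls over 2-fold. At over 4-fold there were 1016 cortical and 483 thalamic calls, at over 8-fold 524 and 234, and at over 32-fold 186 and 58. The cortical share of the calls over 8-fold was 69.1%.

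The excess of large cortical differences depended on how the libraries were scaled. TMM sets the bulk of identifiers at no difference, and the median log2 fold change over all tested was 0.01. When libraries were scaled by their total counts instead, the median of the difference moved by -0.32 on the log2 scale and the split turned to 4010 calls higher in the cortex and 7712 in the thalamus, with 2161 and 3015 over 2-fold. The cortical share went from 51.5% to 34.2% of all calls and from 65.1% to 41.8% of those over 2-fold. All counts and folds below are relative to the TMM scaling. When the test asked whether a difference exceeded 2-fold, and not only whether its estimate did, 1968 identifiers were higher in the cortex and 1007 in the thalamus (edgeR's glmTreat).

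**Figure D1:**
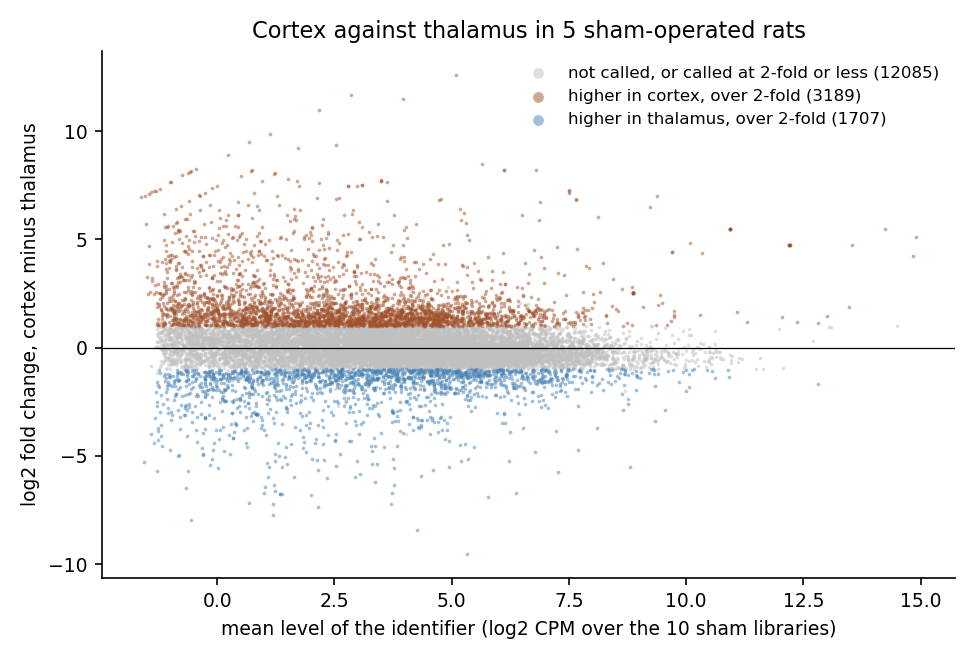
Log2 fold change between cortex and thalamus (vertical axis, positive when higher in the cortex) against the mean log2 CPM of the identifier over the 10 sham libraries (horizontal axis), 1 point per tested identifier. The 3189 identifiers called over 2-fold higher in the cortex reach a log2 fold change of 12.61, and the 1707 higher in the thalamus reach -9.53.

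The direction was the same in all 5 rats for most tested identifiers. All 5 rats lay on the same side for 11151 of the 16981 tested identifiers, and for 10387 of the 11284 called ones (92.1%). The call is made from the same within-rat differences, so the higher share among the calls follows in part from the choice. The 5 cortical values and the 5 thalamic values did not overlap for 8952 of the tested identifiers (52.7%). Counted rat by rat with no test, the identifiers over 2-fold apart numbered 3003 toward the cortex and 1588 toward the thalamus in rat 1, 3028 and 2231 in rat 2, 4050 and 1788 in rat 3, 3304 and 2001 in rat 4, and 2961 and 2052 in rat 5. The cortical number was the larger in every rat, with the widest gap in rat 3 and the narrowest in rat 2.

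A smaller set was measured well enough to show that the areas were alike within a bound. For 3674 identifiers (21.6% of those tested), the 95% confidence interval of the fold change lay within 1.5-fold in either direction, and 360 of these were nonetheless called different, by small amounts. Of the 5697 identifiers without a call, 3314 had an interval within 1.5-fold. The other 2383 had an interval that reached beyond 1.5-fold, so for these a difference of that size was neither called nor excluded.

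The share of large differences was described by count level. An identifier with a low mean can pass the filter on low counts through the area where it is high alone, so large differences collect in the low classes in part by construction, and no trend with level is read from these shares. When the tested identifiers were divided into 4 level classes of equal size by their mean log2 CPM, the share over 2-fold higher in the cortex was 29.5% in the lowest class, then 20.6%, 14.8% and 10.2% in the highest. Toward the thalamus it was 13.0%, 9.19%, 8.55% and 9.47%. In the highest class the shares in the 2 directions were thus close to each other. The share of identifiers called at any size was 60.1%, 67.0%, 68.6% and 70.1% from the lowest to the highest class. Calls over 8-fold numbered 294, 120, 47 and 63 toward the cortex and 115, 50, 48 and 21 toward the thalamus in the same order, so the highest class held more cortical than thalamic ones.

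The identifiers named here are the 2 with the largest log2 fold change in each direction among those that were called, lay on the same side in all 5 rats, had no overlap between areas and had a mean of at least 5 CPM in the higher area. 3198 identifiers met these terms toward the cortex and 3778 toward the thalamus. ENSRNOG00000046768 had the largest difference toward the cortex. Its cortical levels in rats 1 to 5 were 124, 67.5, 43.3, 42.1 and 63.0 CPM (mean 68.0 ± 33.5, SD, n = 5), and rat 1 stood highest. In the thalamus, 1 count was found in rat 2 (0.0334 CPM) and 0 in the other rats. The quasi-likelihood fit in edgeR put the log2 fold change at 12.61 ± 0.29 (SE, adjusted p = 2.58e-09), a fitted value that depends on the small count added to zeros. The counts themselves, 8046 in the cortex and 1 in the thalamus, gave a scaled ratio of 9610 with an exact 95% Clopper-Pearson interval of 1724 to 379610. Intervals and limits of this kind cover counting error only. In the hippocampus of rats 1 to 5 the level was 85.7, 97.9, 90.3, 756 and 734 CPM, above the cortical mean in every rat, below the cortex of the same animal in rat 1, and much higher in rats 4 and 5 than in rats 1 to 3.

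ENSRNOG00000048931 was the second in the cortical direction and had no count in any sham thalamic library. Its cortical levels in rats 1 to 5 were 22.8, 14.1, 8.88, 8.68 and 17.9 CPM (mean 14.5 ± 6.03, SD, n = 5). The 1741 cortical counts against 0 thalamic counts put the level at least 693-fold higher in the cortex, when 3 counts are taken as the limit that a total of 0 allows over the 5 thalamic libraries. The exact 95% Clopper-Pearson interval of the ratio, as given for the other named identifiers, starts lower, at 563. The log2 fold change fitted by edgeR was 11.66 ± 0.37 (SE, adjusted p = 8.12e-07). Its hippocampal levels were 8.81, 7.82, 10.04, 93.3 and 71.1 CPM, with rats 4 and 5 again far above rats 1 to 3, and with rats 1 and 2 below their own cortex. Both cortical identifiers were thus present in every hippocampal library and absent or nearly absent from the thalamus, and in both the highest level was in rat 1 within the cortex and in rat 4 within the hippocampus.

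ENSRNOG00000012478 had the largest difference toward the thalamus. Its thalamic levels in rats 1 to 5 were 61.4, 85.0, 72.2, 69.96 and 113 CPM (mean 80.4 ± 20.2, SD, n = 5), and its cortical levels lay between 0.0414 and 0.159 CPM (mean 0.107 ± 0.0513, SD, n = 5). The lowest thalamic library was far above the highest cortical one. Its log2 fold change in the edgeR fit was -9.53 ± 0.23 (SE, adjusted p = 2.58e-09), and the 11715 thalamic counts against 13 cortical counts gave a scaled ratio of 755 with an exact 95% interval of 441 to 1418. In the hippocampus it lay between 0 and 0.216 CPM, a range that covered the cortical one.

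ENSRNOG00000019495 came next, at a thalamic level of 23.6, 25.4, 62.2, 31.5 and 46.5 CPM in rats 1 to 5 (mean 37.8 ± 16.3, SD, n = 5). Its cortical levels were between 0 and 0.285 CPM (mean 0.106 ± 0.117, SD, n = 5), again far below every thalamic library. The same edgeR fit gave a log2 fold change of -8.42 ± 0.34 (SE, adjusted p = 2.84e-08). The counts were 5433 in the thalamus and 14 in the cortex, a scaled ratio of 325 with an exact 95% interval of 193 to 595. Its hippocampal levels of 0.113 to 0.316 CPM were likewise low. None of these 4 identifiers had counts that matched those of another identifier in every sham cortical and thalamic library.

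**Figure D2:**
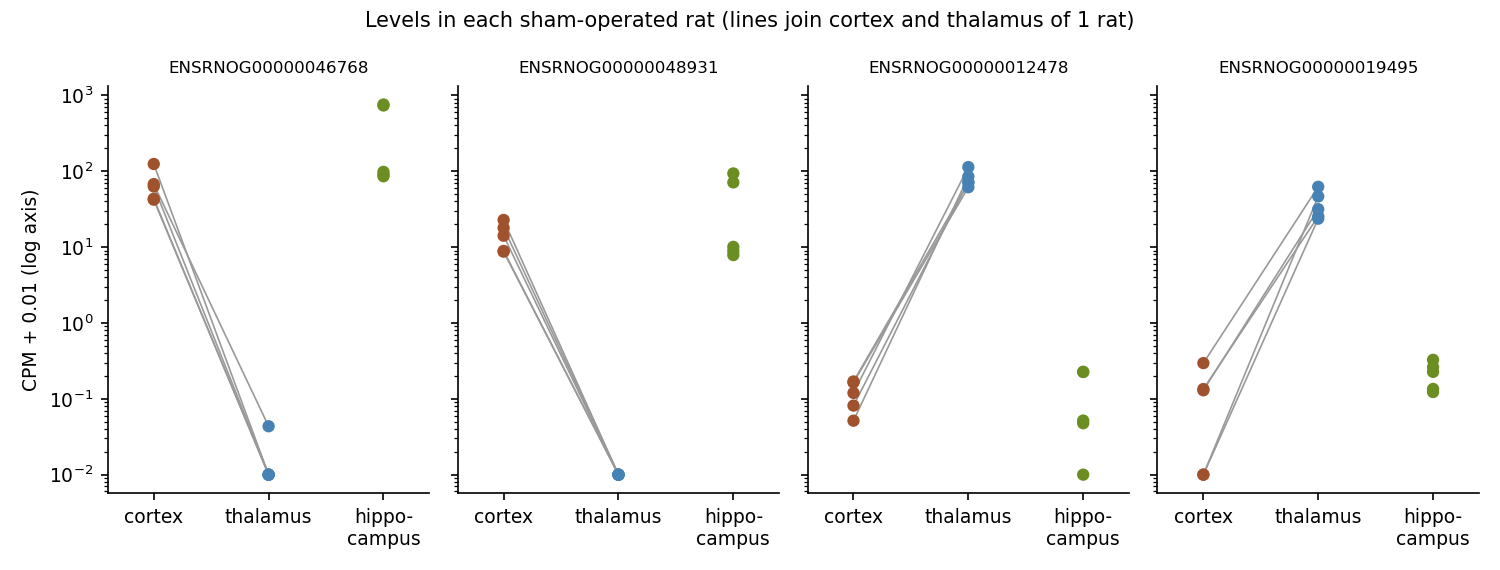
CPM of the 4 named identifiers in each sham-operated rat (vertical log axis, 0.01 added so that zeros can be drawn), with points for cortex, thalamus and hippocampus and lines joining the cortex and thalamus of 1 rat. All 5 lines run in the same direction in each panel, and every hippocampal point lies above every thalamic point for the 2 cortical identifiers and below every thalamic point for the 2 thalamic identifiers.

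Presence in 1 area with near absence in the other was found mostly in the cortical direction. At 1 CPM or more in all 5 cortical libraries and at most 3 counts over all 5 thalamic libraries there were 25 identifiers, and in the reverse arrangement 3. The limit was in raw counts. A sham cortical library had 4481 to 5037 identifiers without a count and a thalamic one 6639 to 7077, so absence was the rarer state in the cortex. With 13 and 14 cortical counts, the 2 named thalamic identifiers did not meet the limit. How far this shaped the 25 and 3 was not tested. Of the 25, 21 had a median of at least 1 CPM in the hippocampus of the same rats, against 0 of the 3 thalamic identifiers. The share of all tested identifiers at that hippocampal level was not counted. In the rats with TBI, 21 of the 25 were again at 1 CPM or more in all cortical libraries and 16 had at most 3 counts over the thalamic libraries. Of the 3 thalamic identifiers, 2 were at 1 CPM or more in all thalamic TBI libraries and 1 had at most 3 counts over the cortical ones.

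The make-up of the libraries differed between the areas. The 10 most counted identifiers took 20.3% to 29.6% of the counts of a sham cortical library, with rat 1 the highest, and 6.32% to 9.13% of a thalamic library. Between 4481 and 5037 identifiers had no count in a cortical library, against 6639 to 7077 in a thalamic library, although the depths overlapped. Neither measure overlapped between the areas. The TBI cortex, with 4091 to 4843 identifiers without a count, and the TBI thalamus, with 6591 to 7065, stood apart in the same way. In the sham hippocampus there were 4411 to 5857, within the cortical range in rats 2 and 3, above it in rats 4 and 5, slightly below it in rat 1, and below the thalamic range in all 5 rats. The identifiers called over 2-fold higher in the cortex took 33.8% to 46.9% of cortical and 6.34% to 8.97% of thalamic counts. Those over 2-fold higher in the thalamus took 13.9% to 15.6% of thalamic and 3.96% to 4.57% of cortical counts, so the smaller number of thalamic calls also took a smaller share of its own area's counts. Both sets were called from these same libraries, so a larger share in the own area follows from the choice. A group of 118 identifiers described below, 93 of them in the cortical set, took 20.4% to 37.9% of the counts of a sham cortical library.

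The 10 most counted identifiers of the sham cortex were all called higher in the cortex, and 7 of them were over 2-fold higher, beside 5816 calls at any size among 16981 tested identifiers and 18.8% over 2-fold. They were chosen for high cortical counts, which the call also uses, so nothing is read from this number. 6 of the 10 were also among the 10 most counted of the thalamus. Counts are not divided by gene length, so this order is one of reads and not of transcripts.

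A group of identifiers that varied between hippocampal libraries took a large part of the cortical reads. In the hippocampus of rats 4 and 5 the 10 most counted identifiers took 44.1% and 40.9% of the counts, more than 2 times the median share, against 15.1% to 16.4% in rats 1 to 3. The study's methods set aside some hippocampal control libraries for a low share of aligned reads, and the sources used here do not say from which rats. After this was seen, the 118 tested identifiers were listed that were over 2-fold higher in the hippocampus of rats 4 and 5 than of rats 1 to 3. Cortical and thalamic counts entered this choice only through the filter on low counts. An identifier can pass that filter through 1 of these areas alone. They took 58.3% and 56.4% of the hippocampal counts of rats 4 and 5 and 18.4% to 20.9% in rats 1 to 3. In the sham cortex they took 37.9%, 28.4%, 20.4%, 27.4% and 22.1% of the counts in rats 1 to 5, and in the sham thalamus 1.90% to 3.04%. Every cortical library was therefore above every thalamic library, and the cortex of rat 1 was highest.

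Of the 118 identifiers, 93 were called higher in the cortex, all of them over 2-fold, and 6 in the thalamus, of which 5 were over 2-fold. Over all tested identifiers, 18.8% were over 2-fold higher in the cortex and 10.1% in the thalamus. Their median log2 fold change was 2.55, beside 0.01 over all identifiers tested. They were 118 of the 16981 tested identifiers, and made up 55 of the 524 calls over 8-fold toward the cortex (10.5%) and 4 of the 234 toward the thalamus. Also in the group were 6 of the 10 most counted cortical identifiers and 3 of the 25 that were nearly absent from the thalamus. Both named cortical identifiers belonged to the group, with rises of 3.02 (ENSRNOG00000046768) and 3.18 (ENSRNOG00000048931) on the log2 scale in the hippocampus of rats 4 and 5, and neither thalamic one did. With the group left out of the library sizes and the test, 16907 identifiers were tested, with 5871 called higher in the cortex and 5357 in the thalamus, and 3207 and 1652 over 2-fold. The counts over 2-fold were thus nearly the same without these identifiers, and larger folds were not counted in that fit. What separated the hippocampal libraries, and its part in the cortical levels of these identifiers, was not tested.

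**Figure D3:**
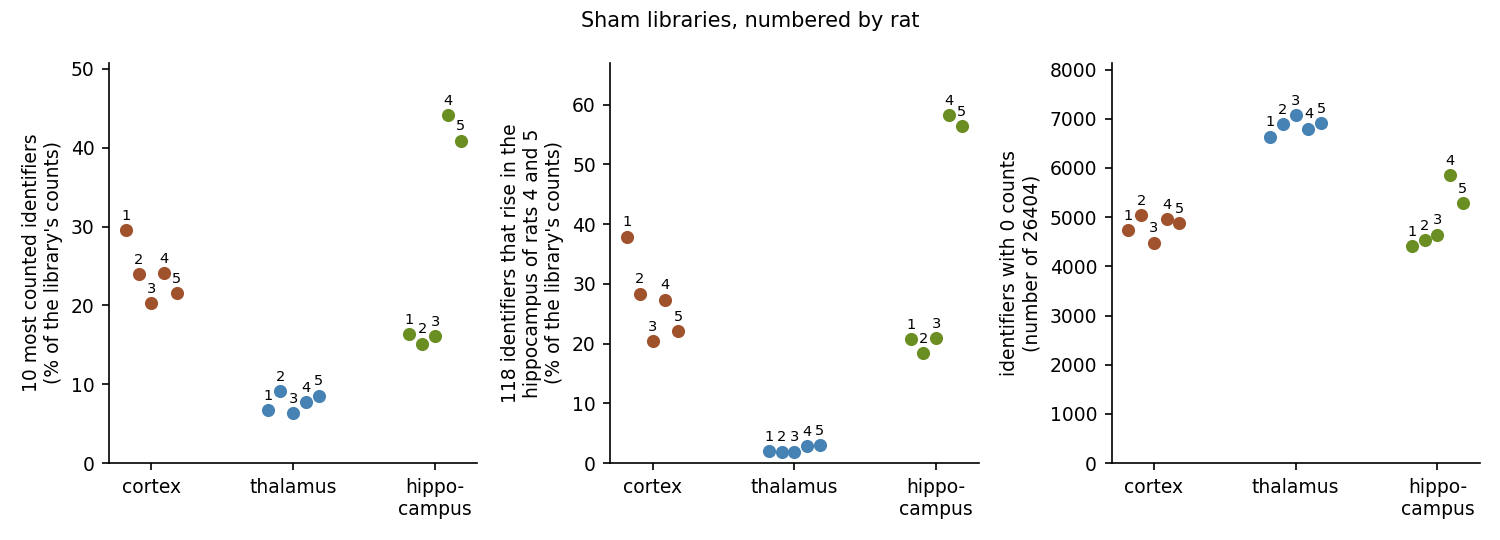
Make-up of each sham library, numbered by rat: the percent of counts in its 10 most counted identifiers (left), the percent in the 118 identifiers higher in the hippocampus of rats 4 and 5 (middle), and the number of the 26404 identifiers without a count (right). The 5 cortical and 5 thalamic libraries do not overlap in any panel, and the hippocampal libraries of rats 4 and 5 stand above the other hippocampal libraries in each.

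The hippocampus was nearer to the cortex than to the thalamus for most large differences in either direction. Each identifier's median log2 CPM over the 5 hippocampal libraries was set against its cortical and thalamic means. Of the 3189 identifiers over 2-fold higher in the cortex, 2531 (79.4%) had a hippocampal median nearer the cortical mean and 658 nearer the thalamic mean. Of the 1707 over 2-fold higher in the thalamus, 1253 (73.4%) were nearer the cortical mean, that is low, and 454 nearer the thalamic mean. Among differences over 8-fold the hippocampus was nearer the cortex for 435 of 524 (83.0%) and 210 of 234 (89.7%). Without the hippocampal libraries of rats 4 and 5 the 4 numbers were 2515, 1234, 433 and 209. These are counts with no test, and in them the hippocampus also shared its sequencing with the cortex if the study's methods hold. The same share was not counted over all tested identifiers, so whether it is particular to large differences is not known.

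**Figure D4:**
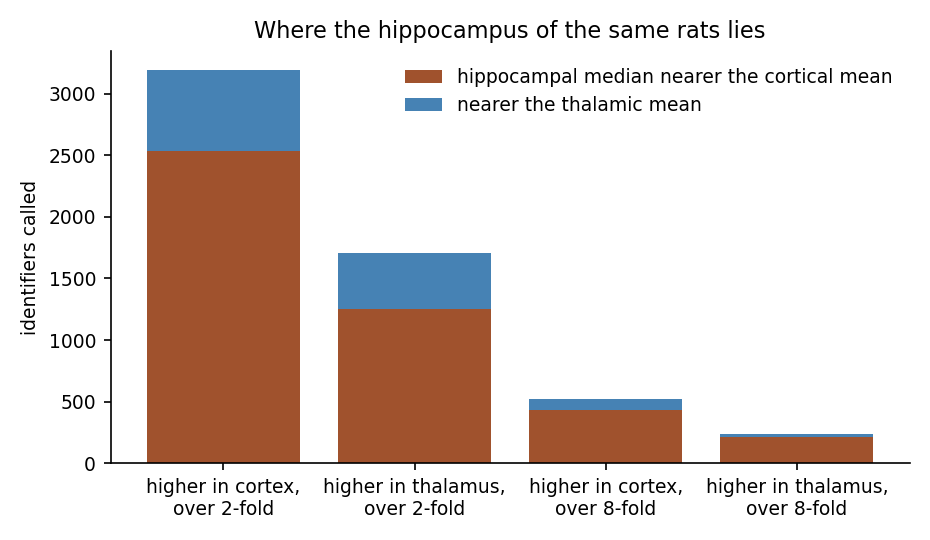
Number of identifiers called between sham cortex and thalamus (vertical axis), by direction and size of the difference, divided by whether the hippocampal median of the same rats is nearer the cortical or the thalamic mean. The larger part of each bar is nearer the cortex, from 73.4% to 89.7% of the identifiers.

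The comparison was repeated in rats 6 to 10, which the sham fit did not use but which carry a brain injury. Of 17308 identifiers tested, 11414 (65.9%) were called, 5872 higher in the cortex and 5542 in the thalamus (edgeR, quasi-likelihood test, Benjamini-Hochberg adjusted). Over 2-fold there were 4390 calls (25.4%), 2950 toward the cortex and 1440 toward the thalamus, again with the larger number on the cortical side. Of the 11211 sham calls that were tested in the rats with TBI, 11039 (98.5%) had the same sign, 9772 (87.2%) were called in the same direction and 15 were called in the opposite one. Of the 4824 sham calls over 2-fold that were tested, 3647 (75.6%) were called over 2-fold in the same direction and 6 were called in the opposite one. By direction, these were 2453 of 3145 cortical and 1194 of 1679 thalamic calls. Their median log2 fold changes were 1.58 in the sham and 1.35 in the TBI rats toward the cortex, and -1.50 and -1.31 toward the thalamus. Since these identifiers were picked for large sham values, a smaller value in other animals follows in part from the choice. Across the 16885 identifiers tested in both, the log2 fold changes had a Pearson's r of 0.954, a Spearman's rho of 0.938 and a median absolute difference of 0.16, as a description across identifiers that share these areas, their sequencing and their depths.

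The 4 named identifiers kept their direction in the rats with TBI. ENSRNOG00000046768 had a cortical mean of 46.2 ± 30.5 CPM (SD, n = 5) and a log2 fold change of 10.93, and ENSRNOG00000048931 a log2 fold change of 8.82. ENSRNOG00000012478 had a thalamic mean of 48.3 ± 22.9 CPM (SD, n = 5) and a log2 fold change of -9.01. ENSRNOG00000019495 had a thalamic mean of 27.6 ± 4.27 CPM (SD, n = 5) and a log2 fold change of -8.25. The interaction test below called none of the 4, with the lowest adjusted p of 0.54 for ENSRNOG00000048931 (edgeR's quasi-likelihood test).

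**Figure D5:**
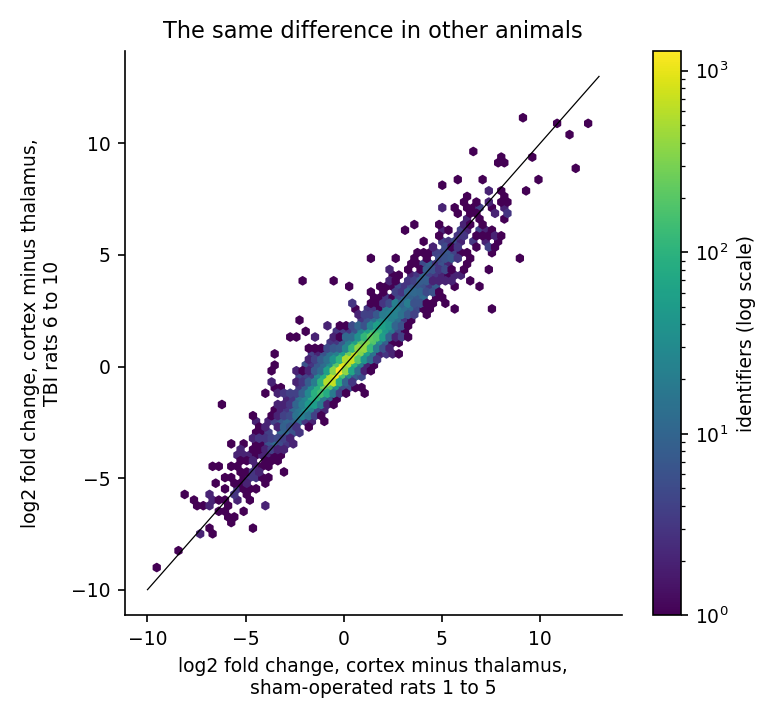
Log2 fold change between cortex and thalamus in rats 6 to 10, with TBI (vertical axis), against the same in sham-operated rats 1 to 5 (horizontal axis), for the 16885 identifiers tested in both. Color gives the number of identifiers per hexagon on a log scale and the line marks equal values, around which most identifiers lie, with a median absolute difference of 0.16.

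Few identifiers were called for a difference between cortex and thalamus that itself differed between sham-operated rats and rats with TBI. An identifier without a call was not shown to keep its difference. In 1 fit of the 20 cortical and thalamic libraries, the interaction of area and treatment was called for 49 of 17745 identifiers (0.276%, edgeR's quasi-likelihood test, Benjamini-Hochberg adjusted), and 1557 passed without adjustment where 887 would be expected by chance. The signed log2 difference, cortex minus thalamus, moved toward the cortex after TBI for 38 of the 49 and toward the thalamus for 11, which does not say whether the areas moved apart or together. Of the 49, 42 were among the identifiers called over 2-fold apart in the sham-operated rats, beside 28.8% of all tested in the sham fit. The interaction uses the same sham values, so part of this overlap follows from its construction. The count moved with single animals in either direction, to 29, 26, 37, 24 and 35 without rats 1 to 5 in turn and to 65, 27, 32, 39 and 52 without rats 6 to 10. Without the rat as a block it was 78.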

How the data were processed

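Poly-A mRNA was sequenced from 3 brain areas of 10 rats. The authors aligned reads with STAR to the rat genome build RN5 and deposited raw counts per Ensembl gene, in 1 table per area. The submitters' processing notes also list DESeq2 and R 3.1.0. The counting tool, annotation and use of strand are not given in the sources used here. Tables were joined by identifier, columns were matched by name (0 left unused), and 0 identifiers matched the reference tables, so 37 gene lists (525 entries) of markers and pathways were not applied. Members and lists were chosen with earlier results of these data known.

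With R 4.3.3 and edgeR 4.0.16, identifiers passing filterByExpr (minimum count 10, minimum total 15) were scaled by TMM and tested by the robust quasi-likelihood test, rat plus area, with Benjamini-Hochberg adjustment at 0.05. Log2 CPM for correlations and components used a prior count of 3. Procedures were tested on simulated data. Named identifiers were the 2 largest log2 fold changes per direction among called identifiers with all 5 rats on 1 side, no overlap between areas and at least 5 CPM in the higher area. Alternatives were no block, DESeq2 1.42.0, limma 3.58.1 voom, RLE and total-count scaling, no filter, glmTreat and leaving out each rat. Leaving out the 118 hippocampal identifiers, leaving out the hippocampal libraries of rats 4 and 5 and leaving out rats in the interaction test were added after seeing the data.

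Same-numbered libraries come from the same rat, by the labels and methods. Deviations from the group mean of a rat's cortex and thalamus correlated between -0.098 and 0.030 across identifiers (mean -0.0168, against 0.00346 for different rats), and 0 of 5 cortical libraries matched their own thalamus best. Replicate libraries differed beyond sampling noise (chi-square per degree of freedom at least 23.2). A total of 300 counts or more was reached by 15240 identifiers, and 65 of these equalled another identifier in all 10 libraries (27 called over 2-fold), which makes them uncertain.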

Additional observations from a re-analysis of the deposited data

Results flagged for a closer look

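Dixon's test was run on 48 groups of libraries, 24 for the levels of the named identifiers and 24 for measures of library make-up. Chance gives a lone sample in about 1 of 20 groups of continuous values. That rate does not hold for groups with many zeros, and a group with 0 in every library cannot be flagged. A library stood apart from the other 4 of its group in 2 of them, both for a named identifier. ENSRNOG00000046768 was at 0.0334 CPM in the sham thalamus of rat 2, which is 1 count, beside 0 in the other sham thalamic libraries. Beside zeros alone any count is flagged, so nothing is read from this flag. ENSRNOG00000019495 was at 0.318 CPM in the TBI cortex of rat 7, far below its thalamic levels. The difference between cortex and thalamus differed between sham-operated rats and rats with TBI for 49 identifiers, by the interaction term of edgeR's quasi-likelihood test with Benjamini-Hochberg adjustment.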

How the results depend on the processing

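Counts of calls in the sham comparison stayed within 1.5 times the reported ones, apart from those over 2-fold in 2 settings. Total-count scaling gave 3015 calls over 2-fold toward the thalamus, and glmTreat gave 1968 toward the cortex and 1007 toward the thalamus. The same rats gave both areas. Without the rat as a block there were 5868 and 5789 calls in the sham-operated rats (98.5% of the reported calls kept), 5758 and 5593 in rats with TBI, and 78 for the interaction. Leaving out single rats gave 5269 to 5678 cortical and 4756 to 5329 thalamic calls, 2951 to 3345 and 1664 to 1823 over 2-fold, 5348 to 5852 and 4796 to 5499 in the rats with TBI, and 24 to 65 for the interaction. The interaction count was 29, 26, 24, 27 and 32 without rats 1, 2, 4, 7 and 8, and the cause of these changes was not tested. DESeq2 gave 6170 and 5429 calls, voom 6009 and 5745, RLE scaling 5852 and 5434, and no filter 6476 and 5805. Of the reported calls, 84.0% were kept in the same direction with total-count scaling and 87.8% to 99.6% with the other settings. The fold change of 99 of them changed sign with total-count scaling, and of 0 with the other settings. The 4 named identifiers kept their call and direction under every setting run (11 or 12 each), with log2 fold changes of 11.61 to 13.94 for ENSRNOG00000046768, 9.53 to 11.80 for ENSRNOG00000048931, -9.82 to -9.21 for ENSRNOG00000012478 and -8.90 to -8.00 for ENSRNOG00000019495. Alternatives for gene lists were not run, since no identifier was paired with a name. Depth limits the identifiers near 0 counts in 1 area, where a fitted fold change depends on the small count added to zeros and is not a bound.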

Other observations

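The share of counts in the 118 identifiers that were higher in the hippocampus of rats 4 and 5 also varied in the cortex of rats with TBI. It was 30.5% and 29.1% in rats 7 and 8 and 13.1%, 13.1% and 15.1% in rats 6, 9 and 10. In the thalamus of the same animals it was 1.39% to 3.46%, and in their hippocampus 9.58% to 19.5%. The cortex of rats 7 and 8 thus lay within the range of the sham cortex, 20.4% to 37.9%, and that of rats 6, 9 and 10 below it. These are values with no test.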
